A study of Mus musculus with 12 samples.

Results

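Solute carriers are membrane proteins that move amino acids, sugars, metals, nucleosides, ions and vitamins into, out of and between the compartments of a cell. The genes described here are the 146 with a symbol beginning Slc and a digit that were present in both of the authors' tables and had a mean level of at least 3 log2 CPM (counts scaled to library size, on the log2 scale) in the 5-day comparison, out of 18120 genes in both tables. Of 332 Slc symbols in both tables, 185 lay under that level and 1 was set aside by the rule and not analysed here. The members were thus chosen by a measured value, their mean level in the 5-day comparison, and their 5-day values are given as a description, beside the same counts over all genes.

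All 12 samples were E14 mouse embryonic stem cells of one genotype, RACK1-AID/RPS26-Tir1, called Ribo-Tweezer. In these cells RACK1, a protein of the small ribosomal subunit, carries an auxin-inducible degron, and the auxin receptor TIR1 is fused to the ribosomal protein RPS26, so that auxin (indole-3-acetic acid, IAA) directs RACK1 to degradation. The groups were cells kept in IAA for 5 days against cells kept in the solvent DMSO for 5 days, and cells 10 days after the end of a 5-day IAA treatment against a DMSO control, with 3 samples in each group. The labels do not say whether the replicates were separate cultures or whether the line is 1 clone, and the p-values cover only the spread among these samples, which may be technical.

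The deposited tables hold the result of a comparison for each gene and no value of a single library. A value in each sample therefore cannot be given, and each gene is shown by a group level derived here, its mean log2 CPM plus or minus 0.5 of the log2 fold, with the standard error (SE) of the fold implied by its t statistic. Folds are IAA over DMSO on the log2 scale, and the reading of positive as higher in IAA is not stated in the headers. The reading was checked on 4772 genes called at 5 days, by regressing the mean level at 5 days minus that at 10 days on the 5-day fold. The slope came to 0.533 ± 0.0114 (SE); 0.5 would follow from this reading and -0.5 from the opposite. The check takes the DMSO controls of both times to be alike. The libraries had a geometric mean depth, recovered from genes with 1 read, of 23.3 M reads at 5 days and 21.2 M reads at 10 days. At that depth the members had between about 187 and 29556 reads in an average 5-day library. Rack1 RNA itself had, in the authors' deposited table for 5 days, a fold of -0.17 ± 0.04 (SE; adjusted p = 0.0051), and the level of RACK1 protein was not measured in these files. All 8 embryonic stem cell markers looked up lay between 7.91 and 10.68 log2 CPM, and 7 of them were lower in IAA. Their summed level was 5921 CPM in IAA cells and 7492 CPM in DMSO cells. Of 10 fibroblast markers, 9 were measured, with a summed level of 138 CPM in IAA cells and 242 CPM in DMSO cells. Nearly all of that sum is Vim, at 6.97 log2 CPM in IAA cells and 7.84 in DMSO cells, which is not specific to fibroblasts, and the other 8 did not pass. Of 5 primitive endoderm markers, Gata4 and Dab2 were higher in IAA, Gata4 narrowly (limma's adjusted p = 0.0497). Gata6, Sox17 and Pdgfra, with folds of -0.29, 1.07 and 0.24, did not pass. The 5 together summed to 8.93 CPM in IAA cells and 3.92 CPM in DMSO cells. Dab2, at 2.54 log2 CPM in IAA cells and 0.74 in DMSO cells, makes up most of the sum in IAA cells. Whether these marker levels play a part in the values of the carriers was not tested. In bulk RNA, fewer cells of a type and less RNA per cell cannot be told apart.

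Amino acid carriers are commonly grouped into sodium-driven importers, which set the size of the pool inside the cell, and exchangers, which trade one amino acid for another. The Slc25 family sits mostly in the inner mitochondrial membrane and links the matrix to the cytosol, while Slc35 proteins feed the Golgi and the endoplasmic reticulum with building blocks for glycans. Zinc is moved into the cytosol by Slc39 (ZIP) and out of it by Slc30 (ZnT) proteins. Embryonic stem cells are known for a high demand for glucose, glutamine and threonine, and for a metabolism that changes as they leave the naive state.

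After 5 days of IAA, 59 of the 146 members (40.4%) passed limma's adjusted p threshold of 0.05, by the authors' deposited table. The background there was 25.5% of 18765 genes, and 35.6% of the 9429 genes at the same mean level or above. Rises and falls were nearly equal in number. There were 30 members higher in IAA (20.5%), against 15.4% of all genes at this level, and 29 lower (19.9%), against 20.2%. The median fold of the members was 0.02, and that of all genes at this level was -0.03. The median size of the fold, regardless of sign, was 0.193 for the members and 0.159 for all genes at this level. Most changes were small, since 8 of the members that rose and 7 of those that fell had a fold of at least 0.5 in size. The deepest fall was -1.09, in Slc15a1, and Slc1a3 rose by 1.07.

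The counts by substrate class are set against 15.4% higher and 20.2% lower among all genes at this level, and differences between classes were not tested. Amino acid carriers split into 6 higher and 8 lower of 25, and mitochondrial carriers into 2 higher and 13 lower of 29. Ion carriers stood at 8 higher and 2 lower of 21, and metal carriers at 4 higher and 2 lower of 19. The Slc35 class had 3 higher and 0 lower of 16, and the class of vitamin, lipid and choline carriers 3 higher and 1 lower of 15. Under the median fold set to 0, or adjustment over genes at this level alone, 6 of that class were higher. With the median fold set to 0, 2775 of all genes were higher in place of 2524. Monocarboxylate carriers had 3 higher and 0 lower of 4, nucleoside carriers 1 higher and 2 lower of 5, and carriers of organic ions 0 higher and 1 lower of 3. Of 6 sugar carriers none passed in the authors' deposited table. The 3 remaining members carry an Slc symbol without being carriers (Slc9a3r1, Slc9a3r2 and Slc7a6os), and none of these 3 passed either. Classes follow the symbol in other places. The adaptor gene Slc4a1ap is counted with the ion carriers, and Slc25a46, which acts in mitochondrial dynamics, with the mitochondrial carriers.

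**Figure D1:**
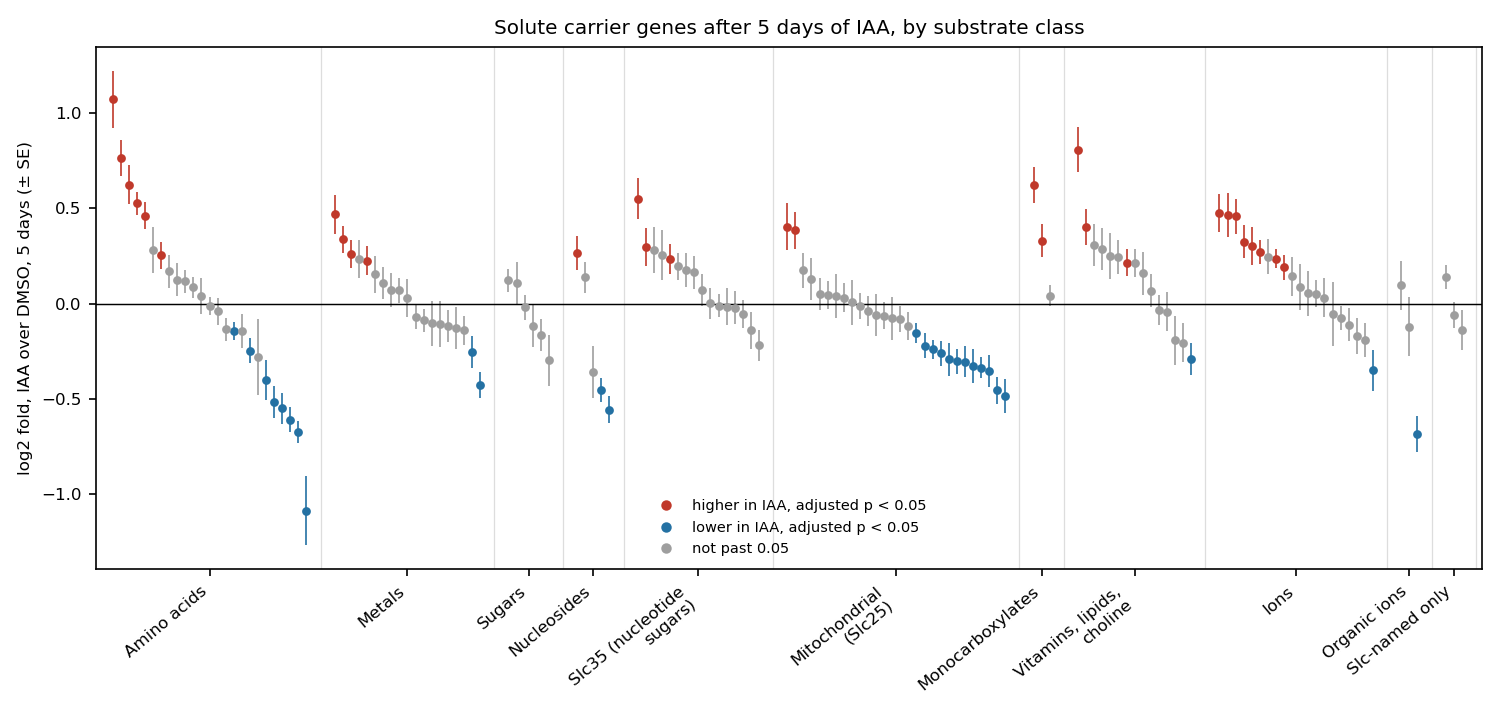
Log2 fold of IAA over DMSO after 5 days (vertical axis) for 143 of the 146 solute carrier genes, in columns by substrate class and sorted by fold; bars are ± 1 SE implied by the deposited t statistic. Red points are 29 genes higher in IAA and blue points 27 genes lower at an adjusted p under 0.05. The points run between -1.09 and 1.07, and most blue points belong to the mitochondrial and amino acid classes.

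The rises among amino acid carriers were led by Slc1a3, which takes up glutamate and aspartate. Its derived level was 4.10 log2 CPM in IAA cells and 3.02 log2 CPM in DMSO cells. The authors' deposited table gave it a fold of 1.07 ± 0.15 (SE; adjusted p = 0.000213), or 2.10 times the DMSO level. Slc7a7, the light chain y+LAT1 that exports cationic amino acids in exchange for neutral ones, stood at 7.43 log2 CPM in IAA cells and 6.66 in DMSO cells, a fold of 0.76 ± 0.10 (adjusted p = 8.4e-05) in the authors' deposited table. Slc6a15, a sodium-driven importer of branched-chain and other neutral amino acids, stood at 4.36 log2 CPM in IAA cells and 3.74 in DMSO cells, and its fold was 0.62 ± 0.10 (adjusted p = 0.000584) in the authors' deposited table. Slc38a2 (SNAT2), a sodium-driven importer known to be induced when amino acids are scarce, had the highest level per kb of the members that rose. It was at 8.72 log2 CPM in IAA cells and 8.20 in DMSO cells. Its fold was 0.53 ± 0.06 (adjusted p = 3.83e-05) in the authors' deposited table. Slc43a2 (LAT4), a carrier of large neutral amino acids, rose by 0.46 ± 0.07, and Slc7a6, the y+LAT2 light chain, by 0.25 ± 0.07 in the authors' deposited table.

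Falls of similar size were found among other amino acid carriers. Slc15a1, which takes up di- and tripeptides, was at 2.54 log2 CPM in IAA cells and 3.63 in DMSO cells, with a fold of -1.09 ± 0.18 (SE; adjusted p = 0.000728) in the authors' deposited table. Its low level, about 198 reads in an average library, goes with the widest error among the members that fell. Slc7a1 (CAT1), the uptake carrier for arginine and lysine, was at 6.62 log2 CPM in IAA cells and 7.29 in DMSO cells, a fold of -0.68 ± 0.06 (adjusted p = 3.72e-06) in the authors' deposited table. Slc7a3 (CAT3), which carries the same substrates, was at 7.59 log2 CPM in IAA cells and 7.63 in DMSO cells and did not pass (adjusted p = 0.734). Slc6a8, the creatine importer, was at 6.63 log2 CPM in IAA cells and 7.24 in DMSO cells, and its fold was -0.61 ± 0.07 (adjusted p = 2.72e-05) in the authors' deposited table. Slc1a5 (ASCT2), an exchanger of glutamine and other neutral amino acids, was at 6.48 log2 CPM in IAA cells and 7.03 in DMSO cells, a fold of -0.55 ± 0.08 (adjusted p = 0.000293) per the authors' deposited table. The taurine importer Slc6a6 fell by 0.52 ± 0.08, the lysosomal exporter Slc36a1 by 0.40 ± 0.11 and the imprinted Slc38a4 by 0.25 ± 0.07 in the authors' deposited table.

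The partners that form the main exchanger of large neutral amino acids stayed close to their DMSO level. Slc3a2, the heavy chain 4F2hc that brings Slc7 light chains to the plasma membrane, was at 8.47 log2 CPM in IAA cells and 8.48 in DMSO cells, and the 95% interval of its fold ran from -0.11 to 0.08. Slc7a5 (LAT1), its leucine-exchanging light chain, was at 8.74 log2 CPM in IAA cells and 8.88 in DMSO cells, a fold of -0.14 ± 0.05 (adjusted p = 0.0372) in the authors' deposited table. Slc7a5 no longer passed with the median fold of all genes set to 0. With the length and GC trend taken out it still passed, with a fold of -0.18. Light chains of the same heavy chain thus lay on both sides of 0, Slc7a7 and Slc7a6 above and Slc7a5 below. Slc38a1, a glutamine importer, and Slc1a4, an exchanger of alanine, serine and cysteine, had folds of 0.09 ± 0.06 and 0.12 ± 0.06 in the authors' deposited table and did not pass.

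**Figure D2:**
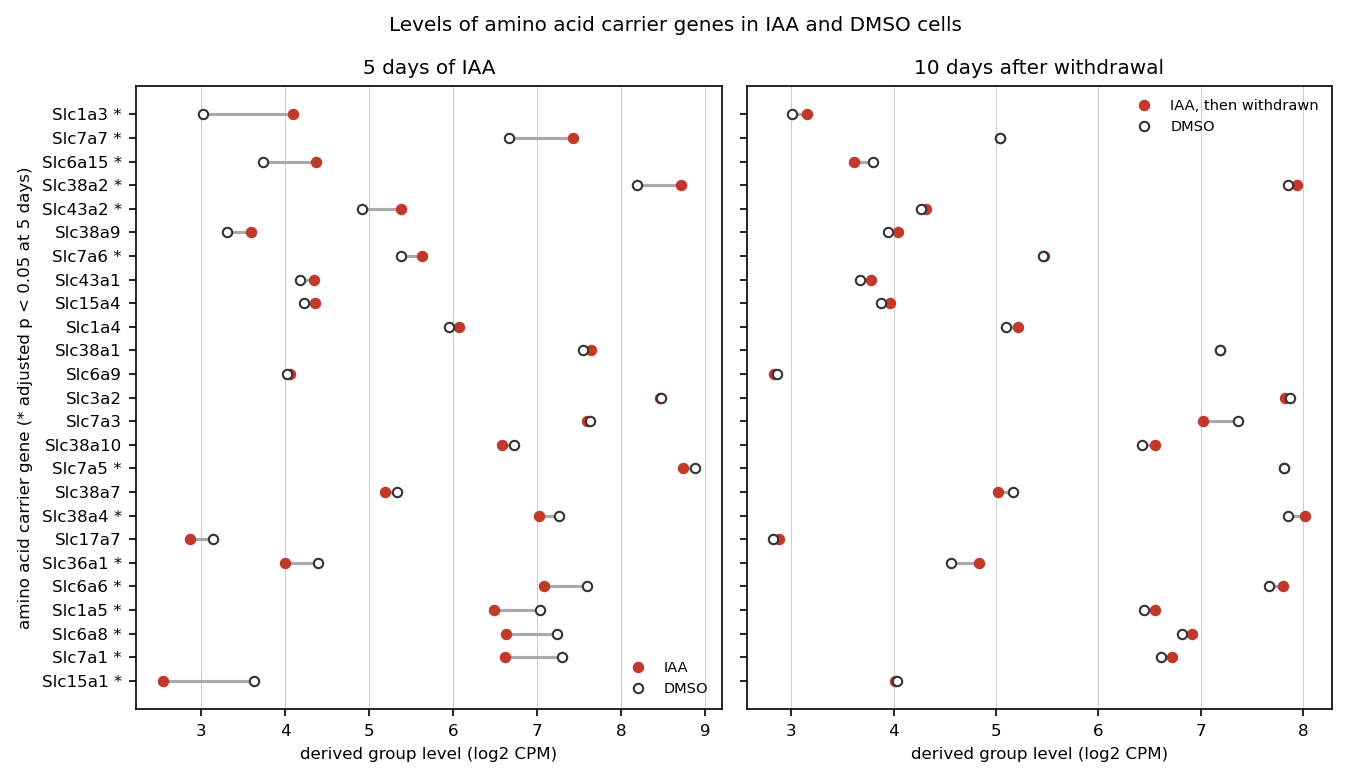
Derived level (log2 CPM, horizontal axis) of each of the 25 amino acid carrier genes in IAA cells (filled) and DMSO cells (open), after 5 days of IAA on the left and 10 days after withdrawal on the right; an asterisk marks the 14 genes with an adjusted p under 0.05 at 5 days. Slc1a3 at the top is at 4.10 in IAA cells and 3.02 in DMSO cells, Slc15a1 at the bottom at 2.54 in IAA cells and 3.63 in DMSO cells, and on the right the filled and open points of most genes lie close together.

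Genes that sense or supply amino acids were looked up beside the carriers. Of 18 such genes, 3 rose and 4 fell in the authors' deposited table, with a median fold of -0.07. For this and the later lists of pathway genes, the background was 15.4% higher and 20.2% lower among all genes at the members' level. Differences from it were not tested. Castor2, of the family of cytosolic arginine sensors, rose by 0.73 ± 0.12 at a mean of 3.52 log2 CPM in the authors' deposited table. Castor1 of the same family, at 6.44 log2 CPM, had -0.16 ± 0.06 and did not pass. Rragb and Rragd, which belong to the Rag GTPases that dock mTORC1 on the lysosome, rose by 0.28 and 0.36 per the authors' deposited table. Asns, the asparagine synthetase, fell by 0.56 ± 0.06, Mtor by 0.24 ± 0.06, and the Ragulator subunits Lamtor2 and Lamtor5 by 0.34 and 0.23 in the authors' deposited table. Atf4, which encodes the transcription factor that drives many amino acid carriers during starvation, had a fold of -0.08 ± 0.05 and did not pass (adjusted p = 0.29). This is a value of RNA, and the level or activity of ATF4 protein was not measured.

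Promoter sequence was available from RefSeq (GRCm38.p6) for 110 of the 146 members, as 300-base windows from 250 bases before to 50 bases after a start site. The composite element TGATGNAA, bound by ATF4 with C/EBP partners, was searched on both strands because several members above are textbook ATF4 targets. It was present for 2 of the 110 members (1.82%), against 4.51% of 27025 gene symbols. Both were among the 18 amino acid carriers with a window, namely Slc7a7, which rose, and Slc1a4, which did not pass. The 3 places are shown 5′ to 3′ on the strand of the gene, each 28 bases long, with the element in capitals. For Slc1a4 the capitals are the element on the opposite strand.
Slc7a7, nearer element: acctagaagcTGATGCAAcagcttcccc
Slc7a7, farther element: cgcttgggctTGATGAAAggttcactgg
Slc1a4: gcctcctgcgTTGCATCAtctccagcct
The Slc7a7 elements lie at chr14:54417928-54417955 and chr14:54418068-54418095 on the minus strand, upstream of the transcript listed for this gene, which ends at 54417699 in GENCODE M21. The Slc1a4 window lies at chr11:20332700-20332727 on the minus strand and spans the 5′ end of its listed transcript. A match describes letters only, and no binding was measured. Bases outside the windows were not searched. The element TGATGNAA has more A and T than G and C, and the members' upstream bases were richer in GC (median 61.8%) than those of all windows (52.4%). Whether base composition plays a part in the share of members with the element was not tested.

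Mitochondrial carriers were the class with the most falls, 13 of 29 (44.8%), against 20.2% of all genes at this level, and a class median fold of -0.08. The falls were small and shared among carriers of unlike substrates. Slc25a20, which exchanges carnitine and acylcarnitine for the oxidation of fatty acids, was at 4.04 log2 CPM in IAA cells and 4.52 in DMSO cells, a fold of -0.49 ± 0.09 (SE; adjusted p = 0.00167) in the authors' deposited table. Slc25a12 (aralar), an aspartate and glutamate exchanger of the malate-aspartate shuttle, was at 5.81 log2 CPM in IAA cells and 6.26 in DMSO cells, a fold of -0.46 ± 0.07 (adjusted p = 0.000572) in the authors' deposited table. Its paralog Slc25a13 (citrin) fell by 0.26 ± 0.07 and Slc25a11, the 2-oxoglutarate and malate exchanger of the same shuttle, by 0.22 ± 0.07 in the authors' deposited table. Slc25a25, a calcium-dependent exchanger of ATP-Mg and phosphate, fell by 0.36 ± 0.08 in the authors' deposited table.

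Other carriers of the class that passed fell by similar amounts. Of the 29 members, 14 did not pass, among them Slc25a26, Slc25a32, Slc25a33, Slc25a40 and Slc25a51. In the authors' deposited table Slc25a39, which imports glutathione, fell by 0.34 ± 0.06 (SE), and Slc25a36, a pyrimidine nucleotide carrier, by 0.33 ± 0.09. Slc25a38, which imports glycine for haem synthesis, fell by 0.31 ± 0.08 and the citrate exporter Slc25a1 by 0.30 ± 0.07 in the authors' deposited table. Slc25a16 fell by 0.29 ± 0.09 in the same table of the authors. Among the energy carriers, Slc25a5 (ANT2), an exchanger of ADP and ATP with the highest level per kb of all members, was at 9.21 log2 CPM in IAA cells and 9.45 in DMSO cells, a fold of -0.24 ± 0.05 (adjusted p = 0.0028) in the authors' deposited table. Slc25a3, the phosphate importer, was at 8.99 log2 CPM in IAA cells and 9.14 in DMSO cells and passed narrowly (-0.15 ± 0.05, adjusted p = 0.0483 in the authors' deposited table). With the length and GC trend taken out Slc25a5, Slc25a3 and Slc25a11 no longer passed. Slc25a4 (ANT1), the paralog of Slc25a5, had -0.08 ± 0.07 and did not pass.

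The 2 members of the class that rose were Slc25a10, a dicarboxylate exchanger, at 0.40 ± 0.12 (SE), and Slc25a46, a protein of the outer membrane that acts in mitochondrial dynamics, at 0.38 ± 0.10 in the authors' deposited table. Among 22 other genes of mitochondrial transport, 1 rose and 7 fell in the authors' deposited table. Mpc1 and Mpc2, the subunits of the mitochondrial pyruvate carrier, fell by 0.73 ± 0.10 and 0.72 ± 0.11, more than any Slc25 member, and the outer membrane channels Vdac1 and Vdac3 fell by 0.39 and 0.33 in the authors' deposited table. Sfxn2, Mtch2 and Smdt1 fell by 0.43, 0.33 and 0.30, and Mtch1 rose by 0.24 in the authors' deposited table.

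**Figure D3:**
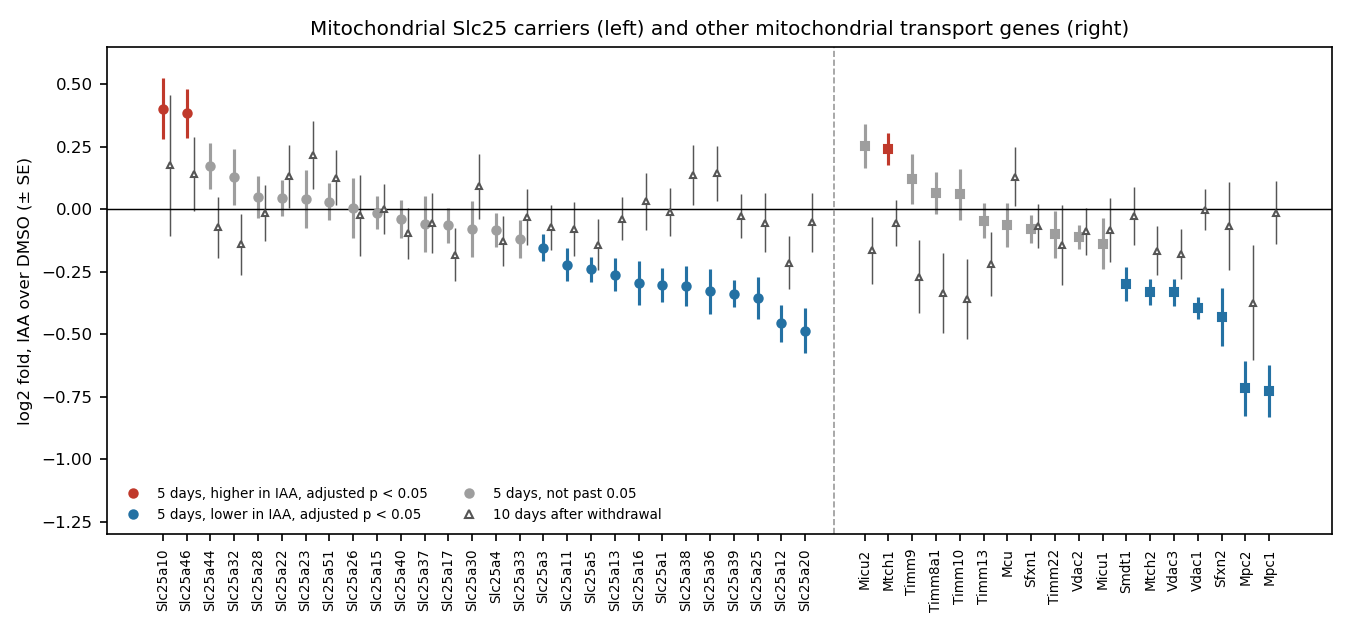
Log2 fold of IAA over DMSO (vertical axis, ± 1 SE) for 28 of the 29 mitochondrial Slc25 genes (left of the dashed line) and other genes of mitochondrial transport at a mean level of at least 3 log2 CPM (right); filled symbols are the 5-day comparison and open triangles the comparison 10 days after withdrawal. The 12 blue Slc25 points lie between -0.15 and -0.49, below them lie Mpc2 and Mpc1 at -0.72 and -0.73, and the open triangles scatter on both sides of 0.

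Among metal carriers, zinc carriers accounted for the 4 rises. Slc39a14 (ZIP14), which takes up zinc, iron and manganese, was at 5.96 log2 CPM in IAA cells and 5.49 in DMSO cells, a fold of 0.47 ± 0.10 (SE; adjusted p = 0.00432) in the authors' deposited table. Slc39a7 (ZIP7), which releases zinc from the endoplasmic reticulum, was at 7.16 log2 CPM in IAA cells and 6.82 in DMSO cells, a fold of 0.34 ± 0.07 (adjusted p = 0.00351) in the authors' deposited table. Slc30a9, which exports zinc from mitochondria, rose by 0.26 ± 0.07 and Slc30a1 (ZnT1), the exporter at the plasma membrane, by 0.22 ± 0.08 in the authors' deposited table. The falls were in Slc41a1, a magnesium carrier, at -0.43 ± 0.07 (adjusted p = 0.00045), and in the zinc importer Slc39a4 (ZIP4), at -0.25 ± 0.08 (adjusted p = 0.0389), per the authors' deposited table. The call of Slc39a4 was lost with the median fold of all genes set to 0. The copper importer Slc31a1, the iron importer Slc11a2 (DMT1) and the zinc importer Slc39a1 (ZIP1) had folds of -0.14 ± 0.07, 0.11 ± 0.08 and -0.07 ± 0.06 and did not pass in the authors' deposited table.

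Of 21 other genes of metal handling, 2 rose and 5 fell in the authors' deposited table. The metallothioneins Mt1 and Mt2, small proteins that bind zinc and copper, both fell, Mt1 by 1.04 ± 0.08 (SE). Mt1 was at 6.72 log2 CPM in IAA cells and 7.77 in DMSO cells, and Mt2 at 7.39 in IAA cells and 8.38 in DMSO cells, by the authors' deposited table. Mtf1, which encodes the zinc-sensing factor that drives metallothioneins and Slc30a1, fell by 0.27 ± 0.08, the transferrin receptor Tfrc by 0.40 ± 0.07 and the copper chaperone Ccs by 0.54 ± 0.09 in the authors' deposited table. Slc30a1 and the metallothioneins, targets of the same factor, thus moved in opposite directions, although the call of Slc30a1 was lost with the length and GC trend taken out. The core of the metal response element, TGCGCNC, was found in the promoter windows of 5 of 14 metal carriers, of 34 of 110 members (30.9%) and of 17.0% of all gene symbols. The median GC content of the 250 upstream bases was 61.8% in the members' windows and 52.4% in all windows, and the element itself is rich in G and C. Whether base composition plays a part in the share of members with this core was not tested.

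The glucose carriers were among the 4 members with the highest levels per kb and did not pass. Slc2a3 (GLUT3) was at 10.25 log2 CPM in IAA cells and 10.37 in DMSO cells, with a 95% interval of the fold from -0.35 to 0.12. Slc2a1 (GLUT1) was at 9.83 log2 CPM in IAA cells and 9.72 in DMSO cells, with an interval from -0.13 to 0.35. The other 4 sugar carriers, Slc2a8, Slc37a1, Slc37a3 and Slc45a4, had folds from -0.30 to 0.12 in the authors' deposited table. Of 10 other genes of sugar handling, the hexokinases Hk1 and Hk2 fell by 0.50 ± 0.14 and 0.43 ± 0.08 (SE), and no other passed, in the authors' deposited table.

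Among the monocarboxylate carriers, Slc16a3 (MCT4), the lactate exporter, was at 8.24 log2 CPM in IAA cells and 7.62 in DMSO cells, a fold of 0.62 ± 0.10 (SE; adjusted p = 0.000434) in the authors' deposited table. Slc16a6 rose by 0.33 ± 0.09 in the authors' deposited table, and 26.1% of its exon bases overlap genes on the opposite strand. Slc16a1 (MCT1), the carrier of lactate and pyruvate, was at 7.59 log2 CPM in IAA cells and 7.55 in DMSO cells and did not pass, with an interval of the fold from -0.08 to 0.16. Basigin and embigin are membrane chaperones of these carriers. Emb rose by 0.49 ± 0.08, and Bsg had 0.18 ± 0.08 and did not pass, in the authors' deposited table.

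The nucleoside carriers with the highest levels per kb both fell. Slc28a1 (CNT1), a sodium-driven importer, was at 5.89 log2 CPM in IAA cells and 6.45 in DMSO cells, a fold of -0.56 ± 0.07 (SE; adjusted p = 0.000101) in the authors' deposited table. Slc29a1 (ENT1), the main equilibrative carrier, was at 7.62 log2 CPM in IAA cells and 8.07 in DMSO cells, a fold of -0.46 ± 0.06 (adjusted p = 0.000164) in the authors' deposited table. Slc29a4, a carrier of monoamines and nucleosides, rose by 0.26 ± 0.09 (adjusted p = 0.045) in the authors' deposited table, a call lost with the length and GC trend taken out. Slc29a2 (ENT2) and the lysosomal Slc29a3 (ENT3) had 0.14 ± 0.08 and -0.36 ± 0.14 and did not pass per the authors' deposited table. Among 11 genes of nucleoside salvage, 1 rose and 3 fell in the authors' deposited table. Adenosine kinase (Adk) rose by 0.44 ± 0.07, thymidine kinase 1 (Tk1) fell by 0.30 ± 0.07, Aprt by 0.45 ± 0.07 and Samhd1 by 0.19 ± 0.06 in the authors' deposited table.

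Of the 16 Slc35 genes, the 3 that rose were Slc35f5 (0.55 ± 0.11, SE), Slc35f6 (0.30 ± 0.10) and Slc35e3 (0.23 ± 0.08) in the authors' deposited table. The call of Slc35e3 was lost with the length and GC trend taken out. Those with a textbook substrate, such as Slc35a1 for CMP-sialic acid, Slc35a2 for UDP-galactose and Slc35b2 for the sulfate donor PAPS, had folds of -0.02 ± 0.09, 0.25 ± 0.13 and -0.22 ± 0.08 and did not pass in the authors' deposited table.

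Among carriers of vitamins, lipids and choline, Slc27a2 (FATP2), which activates very long chain fatty acids, was at 6.74 log2 CPM in IAA cells and 5.93 in DMSO cells. Its fold was 0.81 ± 0.12 (SE; adjusted p = 0.000277) per the authors' deposited table. The riboflavin carrier Slc52a2 rose by 0.40 ± 0.10 and the thiamine carrier Slc19a2 by 0.21 ± 0.07, and the choline carrier Slc44a1 fell by 0.29 ± 0.09, in the authors' deposited table. The class had a median fold of 0.21, with 10 of 15 members above 0. Of the organic ion carriers, Slc47a1 (MATE1), which extrudes organic cations, was at 3.45 log2 CPM in IAA cells and 4.14 in DMSO cells, a fold of -0.69 ± 0.09 (adjusted p = 0.000184) in the authors' deposited table.

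More ion carriers rose than fell, each by less than 0.5, and with the trend on transcript length and GC content taken out 5 rises were left in place of 8. Over all genes the same step left 2480 rises in place of 2524. Slc24a5, Slc8a2 and Slc12a9 had folds of 0.48 ± 0.10, 0.46 ± 0.11 and 0.46 ± 0.09 (SE) in the authors' deposited table. Slc24a5 exchanges sodium for calcium and potassium and Slc8a2 sodium for calcium. Of the exon bases of Slc24a5, 47.1% overlap Myef2 on the opposite strand, and the sources used here do not say whether counting used the strand, so reads of the pair cannot be told apart. The phosphate importers Slc20a1 (PiT1) and Slc20a2 (PiT2) rose by 0.27 ± 0.06 and 0.24 ± 0.05 per the authors' deposited table. The bicarbonate carriers Slc4a2 and Slc4a8 rose by 0.32 ± 0.09 and 0.30 ± 0.10 and the Golgi exchanger Slc9a8 by 0.19 ± 0.06 in the authors' deposited table, and these 3 calls were lost with that trend taken out. Slc12a7 (KCC4), which couples potassium to chloride, fell by 0.35 ± 0.11 in the authors' deposited table. Slc4a1ap, counted in this class by its symbol, encodes an adaptor and did not pass.

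Of 22 genes for membrane partners and pumps, 4 rose and 6 fell in the authors' deposited table. Stk39 (SPAK), a kinase that switches the chloride cotransporters of the Slc12 family, rose by 1.34 ± 0.12 (SE) per the authors' deposited table. Arrdc3, an arrestin-domain adaptor, rose by 0.37 ± 0.06 in the authors' deposited table. Atp1b1, a sodium pump subunit, fell by 0.37 ± 0.08, and Nedd4l, a ubiquitin ligase of membrane proteins, by 0.41 ± 0.09 in the authors' deposited table. The proton pump subunits Atp6v1a, Atp6v1b2 and Atp6v0d1, which acidify lysosomes, fell by 0.32, 0.30 and 0.26, and the kinase Oxsr1 by 0.17, in the authors' deposited table.

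The 8-base element TCACGTGA, bound by the lysosomal regulators TFEB and TFE3, was searched in the same promoter windows because Slc36a1, a lysosomal carrier, fell. Of the lysosomal Slc29a3, Slc15a4 and Slc38a7, none passed. The element reads the same on both strands and does not overlap the elements above. It was present for 3 of 110 members (2.73%), against 1.12% of all gene symbols. The windows are shown 5′ to 3′ on the strand of the gene with the element in capitals.
Slc36a1: ggagccagcaTCACGTGAcagggcccgg
Slc25a36: ccctgggcgaTCACGTGAaagaggcgtg
Slc37a3: gtccccgaggTCACGTGAgcgtccggaa
They lie at chr11:55204326-55204353 on the plus strand, chr9:97111212-97111239 on the minus strand and chr6:39377704-39377731 on the minus strand (GRCm38.p6). Slc36a1 and Slc25a36 fell by 0.40 ± 0.11 and 0.33 ± 0.09 (SE), and Slc37a3 had -0.02 ± 0.07 and did not pass, in the authors' deposited table. The match describes letters only.

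At 10 days after withdrawal of IAA, 0 of the 146 members passed, as did 0 of all 18712 genes (0%) in the authors' deposited table, where limma's lowest adjusted p among the members was 0.901. At an unadjusted p under 0.05 there were 3 members and 805 of all genes. Among these 3 were Slc7a3 at -0.34 ± 0.14 (SE) and Slc36a1 at 0.27 ± 0.12 in the authors' deposited table. Folds of the members ran from -0.34 to 0.27, with a median of 0.01 and a median SE of 0.120, against 0.0876 at 5 days. The 30 members that had risen at 5 days had a median fold of 0.01 at 10 days, between -0.22 and 0.18, and the 29 that had fallen had a median of 0.00, between -0.21 and 0.27. Across the 146 members the Pearson correlation of the 5-day with the 10-day fold was -0.09, and across 9429 genes at the same level it was 0.16. These correlations are across genes, which are not independent replicates.

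Members with large folds at 5 days had close group levels at 10 days. Slc7a7 was at 5.04 log2 CPM in both groups, and Slc27a2 at 4.51 in IAA-withdrawn cells and 4.73 in DMSO cells. Slc1a3 was at 3.16 log2 CPM in IAA-withdrawn cells and 3.01 in DMSO cells. Slc7a1 was at 6.72 log2 CPM in IAA-withdrawn cells and 6.61 in DMSO cells, and Slc15a1 at 4.02 in IAA-withdrawn cells and 4.03 in DMSO cells. The DMSO levels of some members were themselves unlike between the times. DMSO cells had Slc7a7 at 6.66 log2 CPM in the 5-day comparison and 5.04 in the 10-day one, and Slc27a2 at 5.93 and 4.73. The tables were normalized separately and the groups differ in time in culture, so time and normalization cannot be told apart in these differences.

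The change at 5 days was set against the change at 10 days by a two-sided z test of the difference of the folds, adjusted over 18120 genes. The comparisons share no sample. The difference passed for 29 of the 146 members, 11 with a higher and 18 with a lower fold at 5 days, and every one of them had passed in that direction at 5 days. The background was 10.4% of all genes in both tables and 13.5% of those at the members' level. The trend on transcript length and GC content was not taken out for this test. Over all genes at this level, the Spearman correlation of fold with transcript length was 0.22 at 5 days and 0.51 at 10 days. Among the rises the difference was 1.02 ± 0.18 (SE) for Slc27a2 (adjusted p = 1.1e-06) and 0.92 ± 0.22 for Slc1a3 (adjusted p = 0.00095). Among the falls the difference was -1.07 ± 0.22 for Slc15a1 (adjusted p = 6.3e-05), -0.78 ± 0.14 for Slc7a1 (adjusted p = 9.3e-07) and -0.71 ± 0.11 for Slc6a8 (adjusted p = 6.9e-08). By class, the difference passed for 11 of 25 amino acid carriers, 4 of 29 mitochondrial carriers and 4 of 21 ion carriers. Differences between classes or from the background were not tested. The remaining 30 of the 59 members called at 5 days did not pass this test, so for these a return was not resolved. Of the 13 mitochondrial carriers that fell, the difference passed for Slc25a20, Slc25a36, Slc25a38 and Slc25a39. With a t in place of a normal reference, Slc25a36 passed (adjusted p = 0.040), and Slc25a20 (0.0782), Slc25a38 (0.0628) and Slc25a39 (0.0754) did not.

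**Figure D4:**
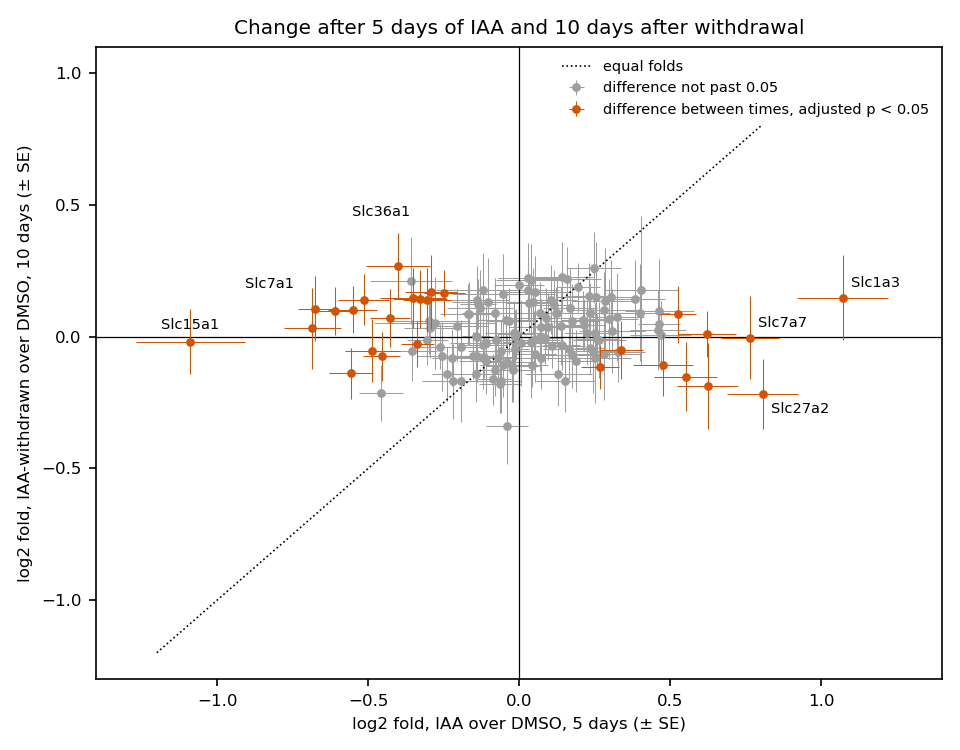
Log2 fold of IAA over DMSO after 5 days (horizontal axis) and 10 days after IAA withdrawal (vertical axis) for 143 of the 146 solute carrier genes, each ± 1 SE; orange points are 27 genes whose folds differ between the times at an adjusted p under 0.05, and the dotted line marks equal folds. The points spread from -1.09 to 1.07 along the horizontal axis and only from -0.34 to 0.27 along the vertical one.

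Levels were compared between genes per kilobase of transcript, as the mean log2 CPM per kb of the 6 libraries of the 5-day comparison. Slc25a5 stood highest at 9.02 ± 0.02 (SE of the mean), then Slc25a3 at 8.38 ± 0.03 and Slc2a3 at 8.32 ± 0.05, which differ by less than 1 SE of their gap. Slc2a1 followed at 8.07, Slc3a2 at 7.61, Slc25a39 at 7.35, Slc7a5 and then Slc29a1 at 6.82, each apart from its neighbour by more than 3 SE of the gap. Slc25a1 at 6.26 and Slc38a2 at 6.24 lay within 1 SE of each other. In metals the highest levels per kb were those of Slc39a7 at 5.91, Slc39a1 at 4.76 and Slc30a5 at 4.04. In the remaining large classes Slc20a1 (5.83), Slc27a2 (4.79) and Slc35b1 (4.71) were highest. The class medians per kb lay between 2.91 for ions and 4.12 for monocarboxylates in the classes of 4 or more members.

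**Figure D5:**
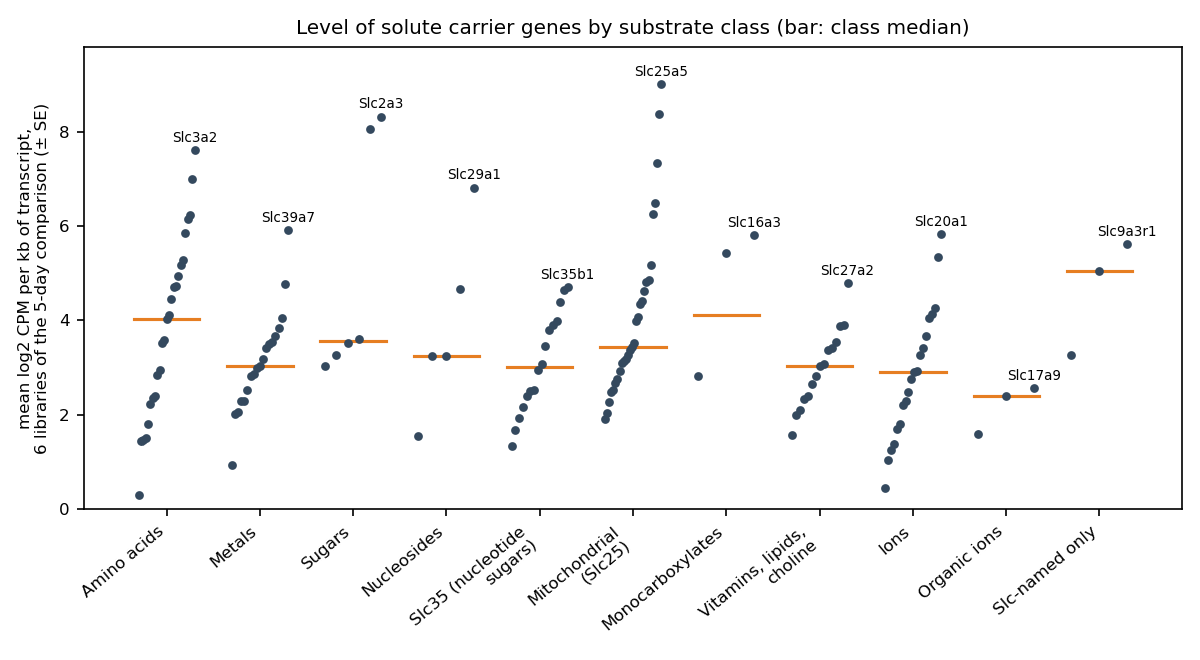
Mean level of 143 solute carrier genes in the 5-day comparison (log2 CPM per kb of transcript, vertical axis, ± 1 SE) by substrate class, with the median over all members of the class as an orange bar and the highest gene named. Slc25a5 is highest at 9.02, and Slc2a3 and Slc2a1, at 8.32 and 8.07, stand well above the other sugar carriers.

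The transcripts of the members had a median length of 3239 bases, against 3070 for all genes at this level, and a median GC content of 52.2%, against 50.5%. The fold at 5 days had a Spearman correlation with transcript length of 0.17 over the members and 0.22 over all genes at this level, given as a description across genes. At 10 days the same correlation over all genes at this level was 0.51. Mitochondrial carriers have short transcripts, with a median of 2614 bases, and with the trend on length and GC content taken out 10 of them were lower in place of 13. Over all genes the same step left 2055 lower in place of 2265. Of 141 members whose transcript is in GENCODE M21, 6 share more than 20% of their exon bases with other genes, among them Slc24a5, Slc16a6 and Slc25a46 of those that rose.

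Just inside the level of the rule were Slc17a7, within rounding of it, and Slc15a1 at 3.09 log2 CPM in the authors' deposited table. Just outside were Slc35c1, also within rounding of it, and Slc12a8 and Slc50a1 at 2.96 and 2.95 log2 CPM in the same table of the authors. Within the rule, 3 members had 1 group under the level, among them Slc15a1 and Slc17a7, which were over it in DMSO cells alone. Of the 185 Slc genes below the level, with a median SE of 0.403, 36 passed (27 higher and 9 lower) in the authors' deposited table. Over all 18765 genes 2524 were higher and 2265 lower (25.5% called), and at the level or above 1454 and 1906 of 9429. Rises thus outnumbered falls among all genes below the level too. The 36 Slc genes that passed include Slc40a1 (ferroportin), the iron exporter, at 2.39 log2 CPM in IAA cells and 0.29 in DMSO cells. Slc11a1 (NRAMP1) was at 0.02 log2 CPM in IAA cells and 2.09 in DMSO cells, and the citrate importer Slc13a5 at 0.79 in IAA cells and 2.24 in DMSO cells. The iodide importer Slc5a5 was at 3.47 log2 CPM in IAA cells and 2.22 in DMSO cells. These 4 genes were chosen after their values were seen. Slc11a1 and Slc40a1 are known from macrophages. Of 6 macrophage markers, 5 were measured, with Ptprc and Csf1r near the floor and a summed level of 16.2 CPM in IAA cells and 22.9 CPM in DMSO cells. Cd68 makes up nearly all of that sum, with a fold of -0.52 ± 0.11 (SE) in the authors' deposited table, and the other 4 did not pass. Of 4 erythroid markers, 2 were measured, with a summed level of 0.149 CPM in IAA cells and 0.0714 CPM in DMSO cells.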

How the data were processed

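Libraries were TruSeq preparations of poly(A) RNA from Trizol extracts, per the labels' protocols. The authors deposited 2 tables of their own comparisons, with limma's column names per the file headers. The deposited log2 values are the fold and the mean log2 CPM, and t and B are deposited scores. The authors' p-value stands beside its Benjamini-Hochberg adjusted value. GC content was deposited as a fraction. The aligner, the counter, the genome build and the version of limma were not given in the sources used here. Each table had 1 emptied row. From the folds of genes with 1 read, the fit weights libraries unequally, so derived group levels are approximate.

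SEs are folds divided by t. The z test and its adjustment were checked on simulated data (Python 3.11.15, scipy 1.17.1, pandas 2.3.3). The simulated noise was normal with SEs taken as known, so this check could not test the normal reference. Called means an adjusted p under 0.05. Coordinates are GENCODE M21 (GRCm38), and promoters RefSeq GRCm38.p6. Named genes are, in each substrate class, up to 4 called rises and 4 called falls by size, members called in the difference between times, the 3 highest levels per kb, 13 textbook carriers and the neighbours of the level, with pathway genes from lists. Other members are named where a class is accounted for. A few genes enter the counts and medians and are not reported here by name. Members, classes and lists were chosen with earlier results of these data known. No count model or refit was possible without library values.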

Additional observations from a re-analysis of the deposited data

Results flagged for a closer look

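The following 27 members passed the z test of the 5-day fold minus the 10-day fold, at an adjusted p under 0.05. Differences below 0 were -1.07 for Slc15a1, -0.78 for Slc7a1, -0.72 for Slc47a1, -0.71 for Slc6a8, -0.67 for Slc36a1, -0.65 for Slc6a6 and -0.65 for Slc1a5. They were -0.50 for Slc41a1, -0.50 for Slc12a7, -0.47 for Slc25a36, -0.46 for Slc44a1, -0.44 for Slc25a38 and -0.43 for Slc25a20. The smallest were -0.42 for Slc28a1, -0.41 for Slc38a4, -0.38 for Slc29a1 and -0.31 for Slc25a39. Differences above 0 were 0.38 for Slc20a1, 0.39 for Slc39a7, 0.44 for Slc38a2, 0.58 for Slc24a5, 0.61 for Slc16a3 and 0.70 for Slc35f5. Larger ones were 0.77 for Slc7a7, 0.81 for Slc6a15, 0.92 for Slc1a3 and 1.02 for Slc27a2. With a t in place of a normal reference, 6 of these did not pass: Slc12a7 (adjusted p = 0.053), Slc25a38 (0.0628), Slc39a7 (0.0721), Slc25a39 (0.0754), Slc25a20 (0.0782) and Slc44a1 (0.0932). The trend on length and GC was not taken out for these differences. The deposited tables hold no library values, so no sample of a group could be set against the others.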

How the results depend on the processing

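The 59 calls at 5 days became 33 at an adjusted p of 0.01 (17 higher, 16 lower) and 15 with a fold of at least 0.5 in size (8 and 7). They numbered 60 (35 and 25) with the median fold set to 0, 53 (25 and 28) with the trend on length and GC removed, and 64 (35 and 29) with adjustment over genes at a mean of at least 3. Members at a mean of at least 2 gave 69 calls of 180, at least 4 gave 50 of 119, and the 10-day level 58 of 147. The 10-day count was 0 under all 8 of these alternatives. Over all 18765 genes at 5 days, 2524 were higher and 2265 lower in the main setting. With the median fold set to 0 these were 2775 and 1960, and with the trend removed 2480 and 2055. Calls over all genes were not counted under the other settings. The differences between times numbered 21 to 31 under the 4 alternatives run, with 23 under a t reference. Removal of the trend on length and GC was not among those 4. Slc3a2, which did not pass, changed sign to 0.014 with the median set to 0 and to 0.021 with the trend removed. With the trend removed Slc25a5, Slc25a3, Slc25a11, Slc4a2, Slc4a8, Slc30a1, Slc9a8, Slc29a4 and Slc35e3 no longer passed, and rising ion carriers numbered 5. With the median set to 0 Slc7a5, Slc39a4 and Slc25a3 no longer passed, and rising vitamin, lipid and choline carriers numbered 6, as with adjustment over genes at a mean of at least 3. The slope behind the reading of direction was 0.70 over called genes at a mean of at least 3, an alternative chosen after seeing the data, and 0.868 ± 0.132 (SE) over the 59 called members. No paired analysis was possible because the tables hold no value of a single library, and leaving out each replicate was not run for the same reason. Folds of members near the level rest on about 187 reads a library.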
